A study of Homo sapiens with 5 samples.

Results

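The mRNA levels of 10 autophagy genes were followed in HEK293T cells that expressed dCas9 fused to a DNA methyltransferase domain. The genes were taken by symbol from the expression tables: the initiation genes ULK1, BECN1 and WIPI1, the conjugation genes ATG5 and ATG12, the ATG8 family genes MAP1LC3B, GABARAPL1 and GABARAPL2, and the cargo receptor genes SQSTM1 and NBR1. All 10 were among the 19716 genes with reads in any library. HEK293T is a human embryonic kidney line carrying the SV40 large T antigen, and the labels name no clone. Cells received 5 sgRNAs against uPA (PLAU, urokinase) together with a fusion of dCas9 and BFP to a partner (dCas9-BFP-DNMT1, dCas9-BFP-DNMT3A and, in the other two groups, dCas9-BFP-DNMT3B and dCas9-BFP-EGFP), or they received pUC19, an empty cloning plasmid without dCas9 or guides, as the control. dCas9 is a Cas9 that binds DNA without cutting it, BFP is a blue fluorescent protein used for sorting, and EGFP has no methyltransferase activity. RNA was taken 48 h after transfection with 1 ug of plasmid. BFP-positive cells were sorted in all groups according to the labels, although pUC19 carries no BFP, so a difference from pUC19 cannot be told apart from a difference in sorting. Each group was a single library, so no difference between 2 libraries has a replicate check, and a test on 2 libraries compares those libraries, not the conditions.

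Autophagy encloses cytoplasm in a double membrane, the autophagosome, and delivers it to the lysosome for breakdown. The ULK1 kinase complex starts the process, the lipid kinase complex that contains BECN1 marks the membrane, WIPI proteins read that mark, and the ATG12-ATG5 conjugate attaches ATG8 family proteins, such as the LC3 protein encoded by MAP1LC3B, to the growing membrane. SQSTM1 (p62) and NBR1 bind ubiquitinated cargo and ATG8 proteins and are themselves broken down in the process, so their mRNA levels do not give the rate of autophagy. SQSTM1 is also a known target of the stress factor NRF2 (gene NFE2L2), and several autophagy and lysosome genes are known targets of TFEB.

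The members' promoters were searched for the binding motifs of these factors. RefSeq promoters on GRCh38 (250 bases before to 50 after the start site) were present for all 10 members, in 14 windows, and were searched on both strands for the letters of 4 motifs. TGACNNNGC, the core of the antioxidant response element bound by NRF2, was found in MAP1LC3B alone, and 13.3% of the 35116 promoter windows held it. It is shown in capitals, at -46 to -38 from the start site, within 29 bases of the plus strand at chr16:87392280-87392308.
MAP1LC3B: gcgagtcaccTGACCAGGCtgcgggctga
The letters TCACGTGA (the core of the CLEAR element bound by TFEB, in 0.980% of windows), CACGTG (an E-box, which lies inside TCACGTGA, in 7.26%) and TGATGNAAN (a C/EBP-ATF response element, in 3.61%) were in no member's window. A match is a run of letters and not a measured binding site. Sequence farther from the start site was not searched, so absence from a window does not mean that the gene lacks the motif.

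The libraries held from 26200000 (EGFP fusion) to 36100000 (pUC19) reads on genes in rounded totals, and every member had at least 146 reads in each. The DNMT1, DNMT3A and DNMT3B rows reached 14582, 16745 and 33141 TPM in the libraries of their own fusions. PLAU, the gene targeted by the guides, had 6, 6, 1 and 4 reads with the fusions to DNMT1, DNMT3A, DNMT3B and EGFP and 106 in pUC19. Of the markers used for HEK293T, VIM, KRT8, KRT18, NEFM and NEFL were all present in every library, between 28.9 and 599 TPM. PTPRC (leucocytes), ALB (hepatocytes) and PECAM1 (endothelium) stayed below 1 TPM, and COL1A1 (fibroblasts) was at 3.87 to 7.97 TPM. The neurofilament genes NEFM and NEFL moved with the control: NEFM was at 193 TPM in pUC19 and at 34.3 to 60.2 in the fusion libraries, and NEFL at 90.7 and at 28.9 to 35.6. Their part in the differences from pUC19 was not tested.

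Against pUC19, ULK1 was the member that stood out. By the 2-fold rule below, it was called higher in 3 of the 4 fusion libraries, and GABARAPL1 in the DNMT3A and DNMT3B fusion libraries. No member was called lower. In TPM alone, ULK1 and GABARAPL1 were above pUC19 in all 4. Some members, such as ATG5 and GABARAPL2, had fewer TPM than pUC19 in some fusion libraries. In bulk RNA, more cells with a transcript and more transcript per cell cannot be told apart. A gene is counted as higher or lower here when a two-sided exact conditional binomial test on the reads of the 2 libraries gave a Benjamini-Hochberg adjusted p of at most 0.001 and TPM + 0.1 differed by at least 2-fold. By this rule 0 of 10 members were higher with the DNMT1 fusion, where 1.53% of all tested genes were, 2 with the DNMT3A fusion (background 4.40%), 2 with the DNMT3B fusion (4.47%) and 1 with the EGFP fusion (2.60%). No member was called lower in any of the 4, against backgrounds of 3.63%, 4.96%, 4.29% and 3.10% in the same order. In either direction the backgrounds were 5.16%, 9.36%, 8.76% and 5.70%. With 10 members, 1 gene moves the share by more than any of these percentages.

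**Figure D1:**
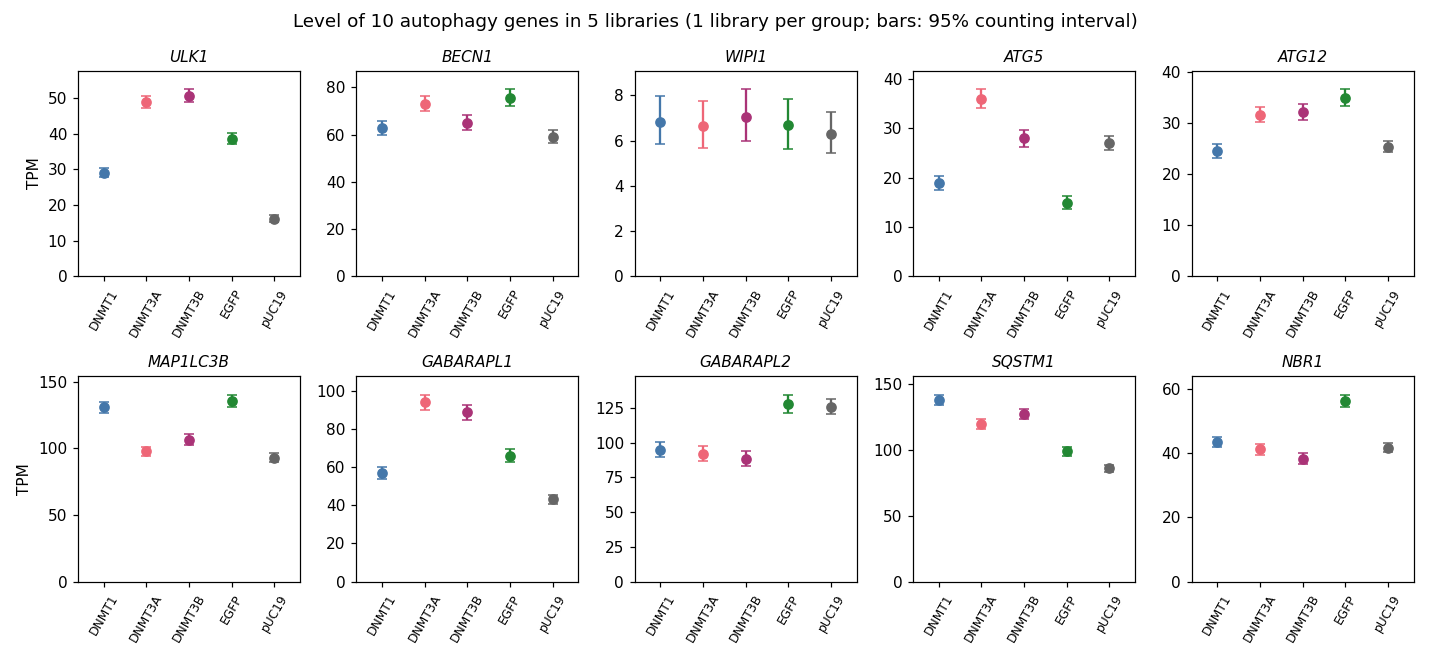
Level of each of the 10 autophagy genes in TPM (vertical axis, from 0) in each library (horizontal axis); points are single libraries and bars are 95% intervals that cover counting error only. ULK1 spans 16.2 TPM in pUC19 to 50.6 TPM with the DNMT3B fusion, ATG5 spans 14.9 to 36.0 TPM, and the intervals of WIPI1 overlap in all 5 libraries.

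ULK1 encodes the kinase that starts autophagosome formation (NCBI gene 8408, GRCh37 chromosome 12, 132379167 to 132407695, plus strand). Its level was 16.2 TPM in pUC19 (1353 reads), 29.1 with the DNMT1 fusion, 38.6 with the EGFP fusion, 48.9 with the DNMT3A fusion and 50.6 with the DNMT3B fusion. The 2 highest libraries overlapped in their 95% counting intervals (47.3 to 50.7 and 48.8 to 52.4 TPM), and every other step in this order was wider than the intervals. ULK1 was 3.01-fold higher with the DNMT3A fusion than in pUC19 (log2 1.59, exact test adjusted p = 1.31e-273), 3.11-fold with the DNMT3B fusion (log2 1.64, adjusted p = 4.34e-257) and 2.38-fold with the EGFP fusion (log2 1.25, adjusted p = 1.14e-137). With the DNMT1 fusion it was 1.79-fold higher, short of the 2-fold limit, at log2 0.84 (exact test adjusted p = 5.56e-63). When libraries were instead given a coefficient of variation of 0.2 in an edgeR exact test, none of these ULK1 calls was kept. The log2 values were then 1.57, 1.55 and 1.22 for the DNMT3A, DNMT3B and EGFP fusions, with adjusted p-values of 0.0108, 0.0119 and 0.123.

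BECN1 encodes the subunit after which the Beclin 1 lipid kinase complex is named, and WIPI1 encodes a reader of its lipid product. BECN1 (NCBI gene 8678, chromosome 17, 40962152 to 40985367, minus strand) was at 62.6, 73.1, 65.0 and 75.6 TPM with the fusions to DNMT1, DNMT3A, DNMT3B and EGFP and at 59.2 in pUC19. The highest library was thus 1.28 times the lowest, and 83.8% of the 10160 genes with at least 5 TPM in every library had a ratio at least as large. WIPI1 (NCBI gene 55062, chromosome 17, 66417089 to 66453654, minus strand) was at 6.83, 6.64, 7.05, 6.67 and 6.31 TPM in the same order, from 146 to 195 reads per library. It was the member with the smallest spread, with a ratio of 1.12 that 98.5% of those genes reached or exceeded. Its log2 differences from pUC19 were 0.07 to 0.16, and the widest of their counting intervals, that of the EGFP fusion, ran from -0.24 to 0.40, so changes of that size could not be seen at this depth.

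The conjugation genes ATG5 and ATG12 encode the protein pair that is joined covalently, and their mRNA levels did not follow the same order. ATG5 (NCBI gene 9474, chromosome 6, 106493298 to 106773666, minus strand) was at 14.9 TPM with the EGFP fusion (547 reads), 18.9 with the DNMT1 fusion (760 reads), 26.9 in pUC19 (1394 reads), 28.0 with the DNMT3B fusion (1022 reads) and 36.0 with the DNMT3A fusion (1489 reads). The control lay in the middle of this order, and its counting interval overlapped only that of the DNMT3B fusion library. Relative to pUC19 the log2 values were -0.51, 0.42, 0.05 and -0.85 for the DNMT1, DNMT3A, DNMT3B and EGFP fusions, all within 2-fold. ATG12 (NCBI gene 9140, chromosome 5, 115163897 to 115177534, minus strand) was at 24.4, 31.5, 32.1 and 34.9 TPM in the fusion libraries and at 25.3 in pUC19. It was thus lowest with the DNMT1 fusion and in pUC19, whose counting intervals overlapped, and highest with the EGFP fusion, the library in which ATG5 was lowest.

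The 3 ATG8 family genes each had an order of their own. GABARAPL1 (NCBI gene 23710, chromosome 12, 10365057 to 10375727, plus strand) was at 56.6 TPM with the DNMT1 fusion, 93.9 with the DNMT3A fusion, 88.6 with the DNMT3B fusion, 65.8 with the EGFP fusion and 43.2 in pUC19. It rose 2.17-fold over pUC19 with the DNMT3A fusion (log2 1.12, exact test adjusted p = 2.64e-108) and 2.05-fold with the DNMT3B fusion (log2 1.04, adjusted p = 2.48e-74), though the counting interval of the latter, 0.93 to 1.14, reached below 2-fold. Both calls were lost with a coefficient of variation of 0.2, at adjusted p-values of 0.116 and 0.216 in the edgeR exact test.

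MAP1LC3B (NCBI gene 81631, chromosome 16, 87417559 to 87438385, plus strand) was highest where GABARAPL1 was not. It was at 131 TPM with the DNMT1 fusion and 136 with the EGFP fusion, at 97.5 and 106 with the DNMT3A and DNMT3B fusions, and at 93.0 in pUC19. The differences from pUC19 were log2 0.49, 0.07, 0.19 and 0.54 for the DNMT1, DNMT3A, DNMT3B and EGFP fusions. GABARAPL2 (NCBI gene 11345, chromosome 16, 75600273 to 75611779, plus strand) was near the same level with the EGFP fusion (128 TPM) and in pUC19 (126 TPM), with overlapping counting intervals. It was lower in the other fusion libraries, at 94.9, 92.1 and 88.2 TPM for DNMT1, DNMT3A and DNMT3B, which was log2 -0.40, -0.45 and -0.51 from pUC19 and within the 2-fold limit.

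SQSTM1 encodes p62, the receptor for ubiquitinated cargo (NCBI gene 8878, chromosome 5, 179233398 to 179265078, plus strand). Its level was 86.2 TPM in pUC19 (4027 reads), 99.2 with the EGFP fusion (3284 reads), 120 with the DNMT3A fusion (4473 reads), 128 with the DNMT3B fusion (4213 reads) and 138 with the DNMT1 fusion (5017 reads). Every step in this order was wider than the counting intervals, and the control was the lowest library. The ratios to pUC19 were 1.60, 1.39, 1.48 and 1.15 for the DNMT1, DNMT3A, DNMT3B and EGFP fusions (log2 0.68, 0.47, 0.57 and 0.20), below the 2-fold limit in all 4, with exact test adjusted p-values of 2.11e-115, 2.31e-45, 9.03e-50 and 2.83e-06. NBR1, the other cargo receptor gene (NCBI gene 4077, chromosome 17, 41322498 to 41363708, plus strand), was at 43.5, 41.1, 38.3 and 56.2 TPM in the fusion libraries and at 41.6 in pUC19. SQSTM1 and NBR1 thus differed in order: NBR1 was highest with the EGFP fusion (log2 0.43 over pUC19), the fusion with the smallest difference for SQSTM1.

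SQSTM1 was read beside the genes of the NRF2 pathway. HMOX1, a heme-degrading enzyme and a well known NRF2 target, rose in all 4 fusion libraries, by log2 2.63, 3.65, 4.30 and 2.77 for DNMT1, DNMT3A, DNMT3B and EGFP. KEAP1, the inhibitor of NRF2, was at log2 0.58, 1.45, 1.52 and 1.24 and passed the threshold in the last 3, calls that were lost with a coefficient of variation of 0.2 (edgeR exact test adjusted p = 0.0234, 0.0244 and 0.129). NFE2L2 itself was at 0.11, 0.78, 0.63 and 0.51, and TFEB at 0.25, 0.65, 0.79 and 0.04, all within the 2-fold limit. HMOX1 and KEAP1 were lowest among the fusion libraries with the DNMT1 fusion, where SQSTM1 was highest. These are mRNA levels of single libraries, and a part of NRF2 in the SQSTM1 values was not tested.

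At a limit of 1.5-fold with the same adjusted p, SQSTM1 and ULK1 were higher with the DNMT1 fusion, where 4.32% of genes were. GABARAPL1 and ULK1 were higher with each of the DNMT3A, DNMT3B and EGFP fusions, where 11.1%, 11.2% and 7.51% of genes were. ATG5 was lower with the EGFP fusion (8.65% of genes), and no member was lower with the DNMT1, DNMT3A or DNMT3B fusion (10.8%, 11.4% and 10.6% of genes). The median over all genes lay at log2 -0.13 in the DNMT1 fusion library, the only one of the 4 with a shift above 0.1, and the member median there was 0.10. Relative to that shift SQSTM1 and ULK1 were higher by more, and under TMM scaling, which takes it up, they were at 0.81 and 0.97, while ATG12 turned from -0.05 to 0.08. The member medians were 0.31, 0.18 and 0.39 in the DNMT3A, DNMT3B and EGFP fusion libraries, beside -0.03, -0.02 and 0.01 for all genes.

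**Figure D2:**
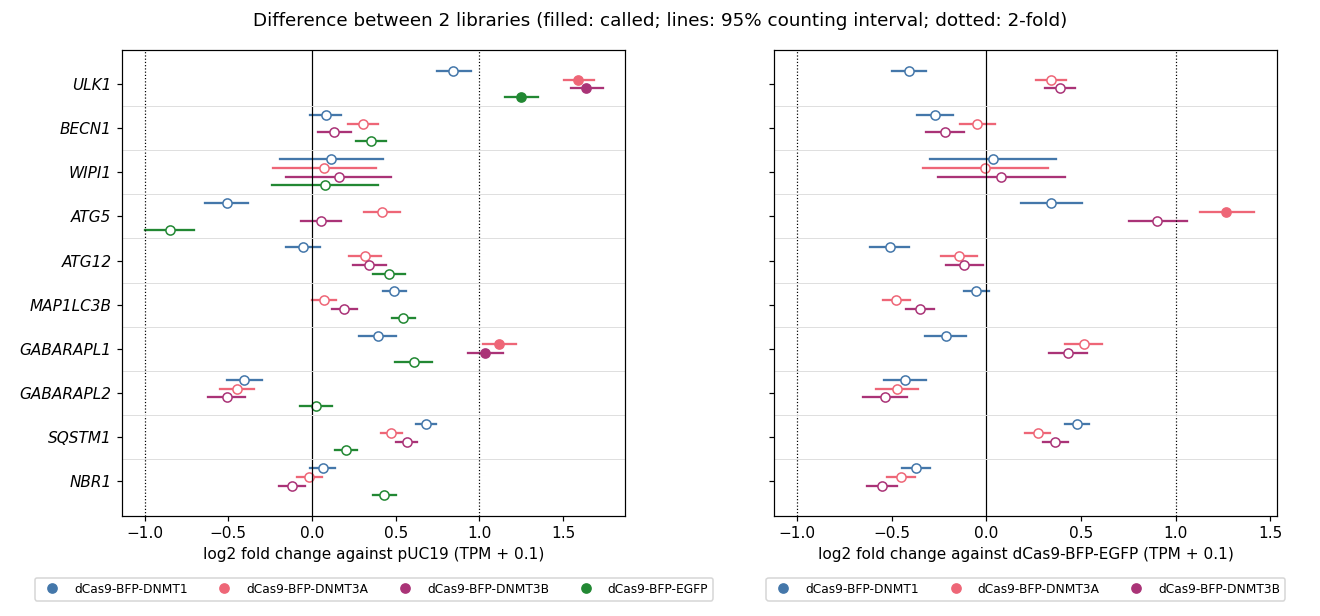
Log2 fold change of TPM + 0.1 (horizontal axis) of each member against pUC19 (left, 4 fusions) and against dCas9-BFP-EGFP (right, 3 fusions); filled points passed both thresholds, lines are 95% intervals of the counting error and dotted lines mark 2-fold. Against pUC19 the filled points are ULK1 with the DNMT3A, DNMT3B and EGFP fusions and GABARAPL1 with the DNMT3A and DNMT3B fusions, and against the EGFP fusion ATG5 with the DNMT3A fusion at 1.27.

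The EGFP fusion carries dCas9 and was given with the same guides, so it serves as a comparison without a methyltransferase domain. The study found no significant rise in uPA promoter methylation with the DNMT1 fusion. Each comparison with the EGFP fusion is of single libraries, so an effect of the domain and a difference between cultures cannot be told apart. ATG5 was lowest of all libraries with the EGFP fusion, at 14.9 TPM, beside 26.9 in pUC19 and 36.0 with the DNMT3A fusion. It was thus 2.40-fold higher with the DNMT3A than with the EGFP fusion (log2 1.27, exact test adjusted p = 1.13e-76). No other member of the 10 was called there, where 2.02% of genes were higher and 1.95% lower (3.97% in all). With the DNMT3B fusion ATG5 was 1.87-fold higher (log2 0.90), below the limit, and no member was called there (background 2.09% higher, 1.42% lower and 3.50% in all). With a coefficient of variation of 0.2 the ATG5 call was lost (edgeR exact test adjusted p = 0.160). No member was called with the DNMT1 fusion, where 0.473% of genes were higher and 0.966% lower (1.44% in all), and its ATG5 value was log2 0.34. At 1.5-fold, ATG5 was called with both the DNMT3A fusion (background 6.70% higher) and the DNMT3B fusion (6.61%), and with the DNMT1 fusion no member was (1.52%). No member was lower at that limit, where 4.97%, 6.22% and 5.00% of genes were for DNMT1, DNMT3A and DNMT3B.

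ULK1, which was called in the EGFP fusion library against pUC19, differed less from the EGFP fusion, by log2 -0.41, 0.34 and 0.39 with DNMT1, DNMT3A and DNMT3B. The counting intervals of the latter 2 values ran from 0.26 to 0.42 and from 0.31 to 0.47. GABARAPL1 was at -0.22, 0.51 and 0.43 in the same order, and SQSTM1 at 0.48, 0.27 and 0.36. GABARAPL2 (-0.43, -0.47 and -0.54) and NBR1 (-0.37, -0.45 and -0.55) lay below the EGFP fusion in all 3 libraries, as did ATG12 (-0.51, -0.14 and -0.12). These 3 comparisons share the EGFP fusion library, as the 4 above share pUC19, so their values are not independent of each other.

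To set the 4 fusions together against pUC19, edgeR's quasi-likelihood test was applied with the spread taken from the fusion libraries, which are different proteins and not replicates, and with pUC19 assumed to vary like them. 0 of 10 members passed an adjusted p under 0.05, where 0.737% of 16001 genes did (0.0937% higher and 0.644% lower). At an unadjusted p under 0.05 there were 2 members, ULK1 and GABARAPL1, where 18.0% of genes were, and DESeq2 called 1, ULK1, where it called 5.03% of genes. ULK1 was higher in 4 of 4 fusion libraries, at log2 1.41 (SE 0.301, edgeR adjusted p = 0.0703). Over the alternatives its adjusted p ranged from 0.000400 (DESeq2) to 0.0877 (without the DNMT3A fusion). GABARAPL1 was at 0.87 (SE 0.291, edgeR adjusted p = 0.174) and SQSTM1 at 0.55 (SE 0.245, adjusted p = 0.279), each higher in 4 of 4. ATG5 was at -0.09 (SE 0.403, edgeR adjusted p = 0.927), the largest standard error among the members. In TPM, pUC19 was below all 4 fusion libraries for 6 of 10 members (SQSTM1, MAP1LC3B, GABARAPL1, WIPI1, ULK1 and BECN1), a pattern held by 24.6% of genes with at least 5 TPM in every library. It was above all 4 for no member, against 32.7% of genes.

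The DNMT3A and DNMT3B fusions, which carry the de novo methyltransferase domains, were then set against the DNMT1 and EGFP fusions. By edgeR's quasi-likelihood test at an adjusted p under 0.05, 3 members were higher in the de novo fusions, GABARAPL1, ULK1 and ATG5. MAP1LC3B alone was lower. Of 15332 genes 6.90% were higher and 4.15% lower there (11.0% in either direction). The control is not part of this comparison. MAP1LC3B was at 97.5 and 106 TPM with DNMT3A and DNMT3B, 131 and 136 with DNMT1 and EGFP, and 93.0 in pUC19. In the same order ATG5 was at 36.0 and 28.0, 18.9 and 14.9, and 26.9 TPM. ATG5 changed by log2 0.86 (SE 0.194, edgeR adjusted p = 0.0260), GABARAPL1 by 0.52 (SE 0.132, adjusted p = 0.0358), ULK1 by 0.51 (SE 0.135, adjusted p = 0.0427) and MAP1LC3B by -0.44 (SE 0.119, adjusted p = 0.0454). DESeq2 called the same 4 genes. In TPM the de novo fusions both exceeded the other two for GABARAPL1, ULK1 and ATG5, as for 38.4% of genes, and lay below them for MAP1LC3B, GABARAPL2 and NBR1, as for 21.5%. GABARAPL2 (log2 -0.35, SE 0.149, edgeR adjusted p = 0.156) and NBR1 (-0.37, SE 0.133, adjusted p = 0.101) did not pass. SQSTM1 was at -0.01 (SE 0.180), and its lowest and highest fusion libraries, EGFP and DNMT1, stood on the same side of this comparison.

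The groups in this comparison hold 2 libraries each, of different fusions. Without the DNMT3A library 0 members were called and without the DNMT3B library 0 were, where 0.114% and 0.336% of all genes passed. Without the DNMT1 library 7 members were called, where 22.5% of genes were, and SQSTM1 was then at 0.33 (edgeR adjusted p = 0.0422). Without the EGFP library 4 were called, where 24.7% of genes were. Each of these fits leaves 1 side with a single library, which is assumed to vary like the others. An offset for GC content and length ended the call of ULK1, at log2 0.27 (edgeR adjusted p = 0.233). ULK1 has the highest GC content among the members, 64.2%, and ATG12 the lowest, 36.1%. The other 3 calls held under the offset, at 0.92 for ATG5, 0.54 for GABARAPL1 and -0.39 for MAP1LC3B. With no filter on low counts ATG5 alone passed, where 5.43% of all genes did.

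**Figure D3:**
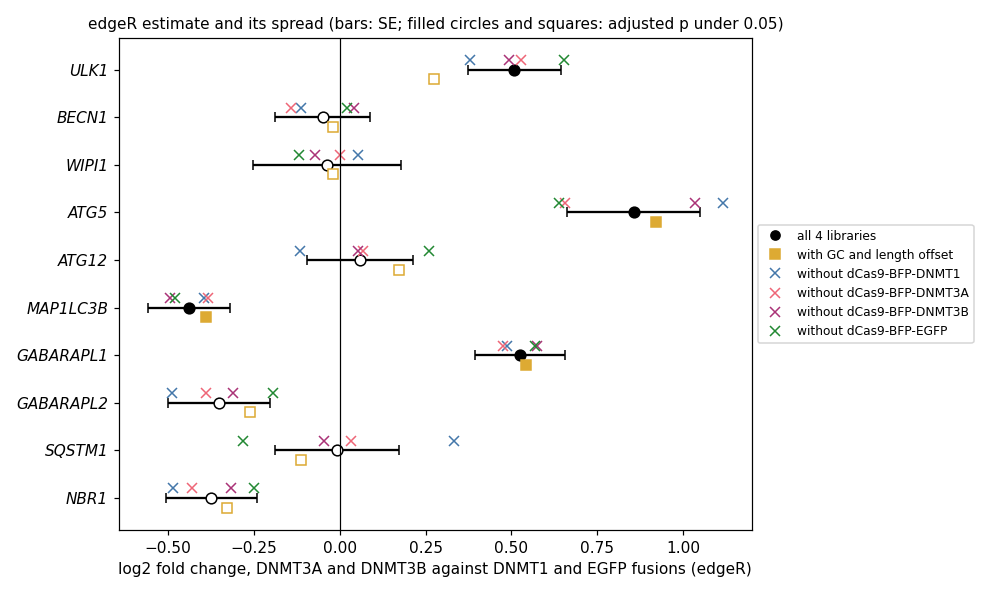
Log2 fold change from edgeR (horizontal axis) of each member in the DNMT3A and DNMT3B fusion libraries against the DNMT1 and EGFP fusion libraries, with standard errors as bars; squares show the fit with a GC and length offset and crosses the fits without 1 library, and filled circles and squares have an adjusted p under 0.05. ATG5, GABARAPL1 and MAP1LC3B are filled in both fits, and ULK1 moves from 0.51 to an open square at 0.27.

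A list of 97 other autophagy genes was grouped by role. Medians cover genes with over 3 reads in both libraries, which left out MAP1LC3A, with 0 to 4 reads per library. With the DNMT1 fusion 0 of 97 were higher and 0 lower than in pUC19. With the DNMT3A fusion 6 of 96 were higher (ZFYVE1, TOLLIP, AMBRA1, TFE3, SESN2 and PLEKHM1) and 2 lower (ATP6V1A and CCPG1). With the DNMT3B fusion 9 of 97 were higher and 1 lower, and with the EGFP fusion 7 of 96 were higher and 0 lower. Of all tested genes 1.53%, 4.40%, 4.47% and 2.60% were higher with the DNMT1, DNMT3A, DNMT3B and EGFP fusions. In the same order 3.63%, 4.96%, 4.29% and 3.10% were lower. The list's median was log2 0.10, 0.20, 0.14 and 0.25 for the DNMT1, DNMT3A, DNMT3B and EGFP fusions, beside medians of -0.13, -0.03, -0.02 and 0.01 for all genes. Lysosome genes (16 genes) lay nearer to 0, with medians of 0.04, -0.14, -0.13 and -0.05, and ATP6V1A, which encodes a subunit of the lysosomal proton pump, was the only one of them to pass against pUC19.

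Among these genes 3 were higher in 3 fusion libraries, the DNMT3A, DNMT3B and EGFP fusions, the same as for ULK1. The share of all genes called in these 3 libraries at once is not given here. The 3 comparisons share pUC19, so calls in 1 are not independent of calls in another. SESN2 encodes a sestrin that restrains mTORC1 when amino acids are scarce, and was at 254, 589, 589 and 370 TPM in the fusion libraries and 140 in pUC19, which was log2 0.86, 2.08, 2.07 and 1.40. TOLLIP, a ubiquitin-binding adaptor, was at 35.5, 58.0, 57.9 and 46.8 TPM and at 22.5 in pUC19 (log2 0.66, 1.36, 1.36 and 1.05). ZFYVE1, whose product marks the membrane sites from which autophagosomes grow, was at 15.5, 25.1, 23.8 and 23.6 TPM and at 10.4 in pUC19 (log2 0.57, 1.27, 1.20 and 1.18). With a coefficient of variation of 0.2, TOLLIP (edgeR exact test adjusted p = 0.0397, 0.0569 and 0.262) and ZFYVE1 (0.0625, 0.117 and 0.172) lost all 3 calls, and SESN2 lost that with the EGFP fusion (0.0602). In each of the 3, as in ULK1, the DNMT1 fusion library was above pUC19 and below the other fusions, short of the 2-fold limit. For the 3 genes its place below the others followed from their choice. They were picked for calls in at least 3 fusions, and no gene of the list was called with the DNMT1 fusion.

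**Figure D4:**
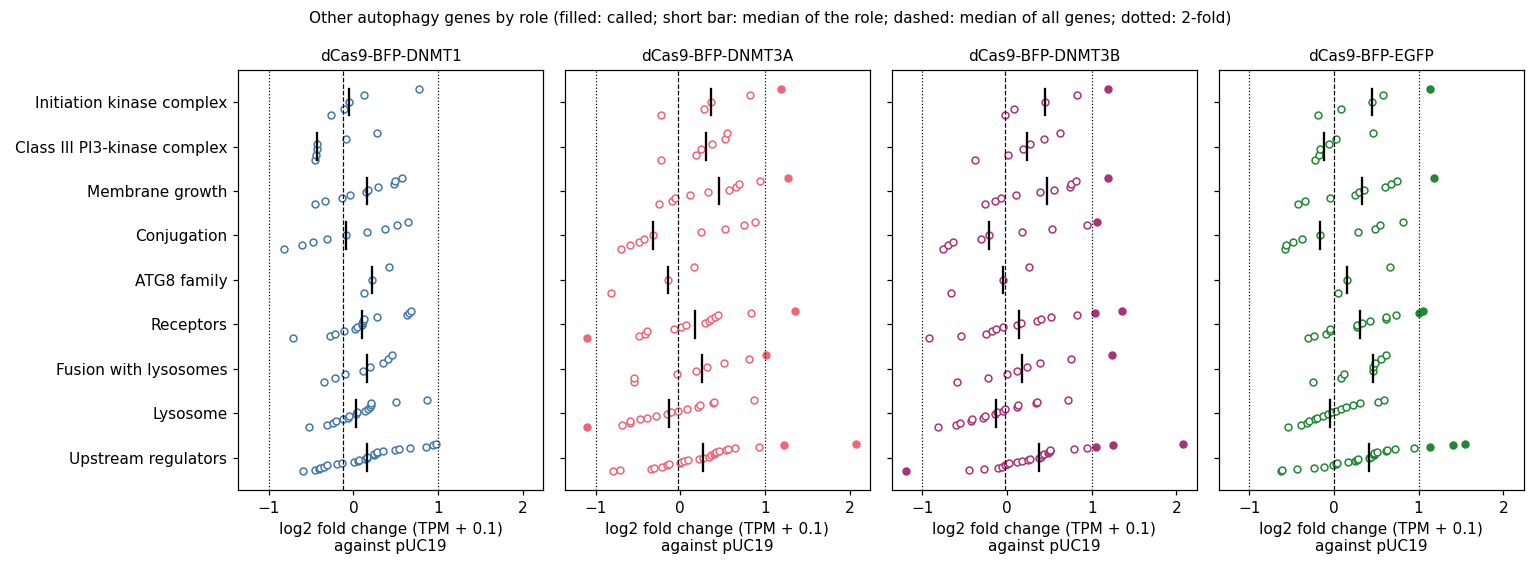
Log2 fold change against pUC19 (horizontal axis) of the 96 other autophagy genes with over 3 reads in both libraries, by role, in each fusion library; points are genes, filled points passed both thresholds, short bars are role medians, the dashed line is the median of all genes and dotted lines mark 2-fold. No gene is filled for the DNMT1 fusion, and the farthest filled point to the right with the DNMT3A and DNMT3B fusions is SESN2, at 2.08 and 2.07.

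Against the EGFP fusion, 0 of 97 of these genes were called with the DNMT1 fusion, where 1.44% of all genes were. With the DNMT3A fusion 3 were lower (SESN3, ATP6V1A and TP53INP1) and 0 higher, and with the DNMT3B fusion ATG9B was higher and TP53INP1 lower. Of all genes 1.95% were lower and 2.02% higher with the DNMT3A fusion, and 1.42% lower and 2.09% higher with the DNMT3B fusion. In edgeR's comparison of the 4 fusions with pUC19, 0 of 96 passed, while 24 had an unadjusted p under 0.05 (21 of them higher), where 18.0% of all genes had (8.87% higher), and DESeq2 called 12, where it called 5.03% of genes. In the comparison of the DNMT3A and DNMT3B fusions with the DNMT1 and EGFP fusions, 7 of 96 were higher and 2 lower. Of all genes 6.90% were higher and 4.15% lower there. SESN2 (log2 0.87), AMBRA1 (0.78), ATG2A (0.72) and DDIT4 (0.69) had the smallest p among the higher genes. ATP6V1A (-0.99) and TP53INP1 (-0.89) were the lower ones. TP53INP1 was at 5.25 and 5.66 TPM with the DNMT3A and DNMT3B fusions and at 3.94 in pUC19. AMBRA1 encodes a regulator of the ULK1 and BECN1 complexes, ATG2A a lipid transfer protein of the growing membrane, DDIT4 an inhibitor of mTORC1 and TP53INP1 a stress-induced LC3-binding protein.

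Of the 10 members, ULK1 had the largest ratio of highest to lowest TPM, 3.12, which 1.68% of the 10160 genes with at least 5 TPM in every library reached. ATG5 followed at 2.41 (6.35% of genes) and GABARAPL1 at 2.18 (10.5%), whereas the ratio of SQSTM1, 1.60, was reached by 41.2% of genes. The remaining 6 had ratios from 1.12 to 1.47. The profiles of BECN1 and ATG12 over the 5 libraries were the closest pair, at a root-mean-square distance of 0.110 in centred log2(TPM + 1), and those of GABARAPL2 and ULK1 were the farthest apart, at 0.749. Among all genes, the 3 nearest to SQSTM1 were HSPA8 (0.0371), MBOAT7 (0.0429) and MUM1 (0.0453), and the nearest to MAP1LC3B was CLSTN3 (0.0133), followed by SERINC3 (0.0318) and TMEM38A (0.0326). HSPA8, the constitutive HSC70 chaperone, was at 2671, 2242, 2384 and 1822 TPM in the fusion libraries and 1702 in pUC19. The nearest to GABARAPL1 were TAF6L (0.0389), RASGEF1B (0.0399) and GNA11 (0.0416), and to WIPI1 NTAN1 (0.0196), NUDT5 (0.0208) and GATAD2A (0.0214). Centring removes the level of a gene, so these distances compare the profile over the 5 libraries alone.

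Some member values can include reads of other genes, or lack reads that fit transcripts of 2 genes. The counting is not stated to use strand, and exons of genes on the opposite strand cover 24.4% of the merged exon bases of WIPI1 (ARSG), 21.0% of SQSTM1 (MRNIP), 12.4% of BECN1 (CNTD1) and 8.12% of GABARAPL1 (GABARAPL1-AS1) in GENCODE on GRCh37. These merged exons are not the transcripts used for counting: for SQSTM1 they hold 7535 bases, beside a deposited gene length of 2931. Only reads with a single place in the transcripts were counted. MAP1LC3B and GABARAPL1 may thus be undercounted, having near-identical copies in MAP1LC3B2 (5 to 14 reads per library) and GABARAPL3 (0 to 2 reads). The deposited coverage of the members' transcripts was between 68.5% and 100%, with BECN1 at 68.5% to 69.5% in all 5 libraries.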

How the data were processed

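Poly(A) RNA of 5 sorted HEK293T populations was sequenced on an Ion Proton. Before alignment the authors removed low-quality, adaptor and short (under 30 nt) reads. They aligned the rest with tmap to hg19 RefSeq RNA with at most 3 mismatches and counted unique reads. The deposited read count per gene is a whole number. The TPM deposited by the authors is that count per base of gene length, set to the same sum in every library. The deposited coverage in percent is undefined and was read as the covered part of the transcript. Genes missing from a table were set to 0.

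Groups came from the sample titles. Pairs of libraries were compared by an exact conditional binomial test on shares of reads, two-sided by doubling the smaller tail, with Benjamini-Hochberg adjustment over all genes with reads, at the thresholds of the study (0.001 and 2-fold), whose test was not named. Fold changes are of TPM + 0.1, which understates changes of low genes. TPM ratios to pUC19 are 0.988 to 1.06 times ratios of read shares, so the test and the fold can differ slightly. edgeR 4.0.16 (R 4.3.3) used TMM, filterByExpr and the quasi-likelihood test on counts. DESeq2 1.42.0 was an alternative. The 95% intervals are exact Poisson intervals for TPM and Clopper-Pearson intervals for the ratio of 2 libraries. They cover counting error only, and PCR copies were not removed by molecular identifiers. The scripts were tested on simulated data. The members and lists were chosen with earlier results of these data known. Named genes are the 10 members, other autophagy genes called in at least 3 fusions or, in the second edgeR comparison, the 4 with the smallest p per direction, the genes checked for labels and pathways (PLAU, the methyltransferases, HMOX1, NFE2L2, KEAP1 and TFEB) and the 3 genes nearest to 4 members. Other genes are named where a count is small and were then chosen after their values were seen. Positions are from GENCODE v44 on GRCh37 and promoters from RefSeq on GRCh38. GC content was available for 97.4% of genes.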

Additional observations from a re-analysis of the deposited data

Results flagged for a closer look

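Given here are the members that passed edgeR's test of the de novo methyltransferase fusions (DNMT3A, DNMT3B) against the DNMT1 and EGFP fusions. Of the 9 other autophagy genes that passed, only those with the smallest p, at most 4 per direction, are given. They are shown because the fusions differed among themselves, whether or not they also differed from pUC19. On the log2 scale these differences were 0.86 for ATG5, 0.52 for GABARAPL1, 0.51 for ULK1 and -0.44 for MAP1LC3B among the members. Among the other autophagy genes they were 0.87 for SESN2, 0.78 for AMBRA1, 0.72 for ATG2A, 0.69 for DDIT4, -0.99 for ATP6V1A and -0.89 for TP53INP1. None of the 10 differences passed without the DNMT3A library or without the DNMT3B library.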

How the results depend on the processing

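No paired analysis was possible because the labels give no replicate numbers and each group has 1 library. Depth limits WIPI1 most, with 146 to 195 reads per library, and the spread between cultures of 1 group is unknown for every gene.

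The number of members called changed as follows. With a coefficient of variation of 0.2 it was 0 in the DNMT3A, DNMT3B and EGFP fusions against pUC19 and 0 in the DNMT3A fusion against the EGFP fusion. At 1.5-fold it was 2 for the DNMT1 fusion and 3 for the EGFP fusion against pUC19, and 1 for the DNMT3B fusion against the EGFP fusion. The share of all genes called with that coefficient of variation is not given here. For the 4 fusions together it was 1 with DESeq2 and 1 without the filter on low counts. These settings called 5.03% and 1.28% of all genes. For the DNMT3A and DNMT3B against the DNMT1 and EGFP fusions it was 1 without that filter and 0 to 7 when a library was left out.

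Of the other autophagy genes, at 1.5-fold 14, 25, 27 and 22 were called in the DNMT1, DNMT3A, DNMT3B and EGFP fusions against pUC19. In the DNMT1, DNMT3A and DNMT3B fusions against the EGFP fusion 5, 14 and 12 were. Against pUC19, of all genes 4.32%, 11.1%, 11.2% and 7.51% were higher at that limit and 10.8%, 11.4%, 10.6% and 8.65% lower. Against the EGFP fusion 1.52%, 6.70% and 6.61% were higher and 4.97%, 6.22% and 5.00% lower. With a coefficient of variation of 0.2 the counts were 1, 1 and 0 in the DNMT3A, DNMT3B and EGFP fusions against pUC19, and 0 in the DNMT3A and DNMT3B fusions against the EGFP fusion. For the DNMT1 fusion against pUC19 the count was 2 with TMM scaling and 1 after thinning, and for the DNMT3B fusion against the EGFP fusion 0 with a pseudocount of 1 TPM. The shares of all genes at these settings are not given here. For the 4 fusions together it was 12 with DESeq2, 1 with the GC and length offset and 1 without the filter. In that order 5.03%, 0.943% and 1.28% of all genes were called. For the DNMT3A and DNMT3B against the DNMT1 and EGFP fusions it was 17 with the offset, where 15.5% of all genes were called, and 0 to 32 when a library was left out, where 0.114% to 24.7% were.

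Over all named genes and alternatives, 755 values kept their direction and their side of the threshold, 45 lost and 23 gained a call, and 24 changed sign, 20 of them in members. In that comparison of fusions, leaving out a library gave ranges of -0.12 to 0.26 for ATG12, -0.28 to 0.33 for SQSTM1, -0.12 to 0.052 for WIPI1 and -0.14 to 0.040 for BECN1, and SQSTM1 was at 0.0041 without the filter. ATG5 in the 4 fusions was at 0.12 with the offset and between -0.33 and 0.093 when a library was left out. With TMM scaling, in the DNMT1 fusion against pUC19, ATG12 was at 0.076, ATG2A at 0.082 and ATP6V1A at 0.079, NBR1 with DNMT3A against pUC19 was at 0.0029, and against the EGFP fusion MAP1LC3B with DNMT1 was at 0.087 and WIPI1 with DNMT3A at 0.024. With a coefficient of variation of 0.2 the values were -0.036 for ATG5 with DNMT3B, and -0.013 for ATP6V1A and -0.011 for GABARAPL2 with EGFP, against pUC19, and 0.0015 for MAP1LC3B with DNMT1 and 0.0024 for WIPI1 with DNMT3A against the EGFP fusion. After thinning, GABARAPL2 was at -0.0060 and TFEB at -0.013 with EGFP against pUC19, and WIPI1 with DNMT3A against EGFP at 0.011. The cause of these changes was not tested.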
